A study of Macaca mulatta with 5 samples.

Results

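NPC (c25) is a cluster of kidney cells that the study named as nephron progenitors after integrating rhesus macaque with human data. Its members here were the cells carrying this name in the 5 fetal rhesus macaque libraries used, 4293 of 36039 cells or 11.9%. The study's table of cells has 11 further library names that were not used, so these counts may not cover the whole cluster. The cells used came from kidneys enriched for cortex, collected from the end of the second trimester onwards. They were profiled by droplet single-cell RNA sequencing. For libraries 600 and 628 (dissected), cortex was cut out by hand from donor kidneys and digested with cold-active enzymes. For libraries 623, 627 and 632 (vortexed), kidneys were agitated in a cold enzyme mix named for Bacillus licheniformis, which favours the release of cortical cells. No library carried a gene deletion or drug treatment in its labels, and the labels give no gestational age for a single library. Preparation and age therefore cannot be told apart.

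Nephron progenitors form a cap of mesenchyme around each branching tip of the ureteric bud, the outgrowth that becomes the collecting duct. They either renew themselves or, after WNT signals from the bud, turn into the epithelium of a new nephron. In the mouse, the transcription factor SIX2 holds them in the undifferentiated state, EYA1 acts upstream of SIX2, and CITED1 marks the least differentiated cells. Interstitial cells lie beside the cap as a separate lineage. Nephron formation in primates ends before birth, when the progenitors are used up.

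The name NPC could not be checked against SIX2, CITED1, EYA1, MEOX1 or TMEM100, because 0 columns of the table hold gene values. The study's embedding is an arbitrary map on which cells with similar profiles tend to lie close together. Position on this map cannot settle the name either. Of the closest cells with another name, 57.8% ± 15.9 (SD, n = 5 libraries) were named as stroma, and 81.2% ± 9.68 when cells named only for a cell-cycle phase were left out. Stroma made up a mean of 20.1% and 24.1% of the cells that could be chosen. Cap mesenchyme (c30), the other progenitor name, made up 0.749% ± 0.451 with phase-named cells kept and 1.51% ± 0.967 without them. Because the name was not checked, the cells are called NPC (c25) throughout, as the study's label. All cells used were rhesus, so the balance between species is not analysed here. Sequencing depth is unknown, and each value is a number or share of cells.

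Libraries differed strongly in how many NPC (c25) cells they held. There were 52 in library 600, 851 in library 628, 2434 in library 623, 926 in library 627 and 30 in library 632. Library 623 alone supplied 56.7% of all NPC (c25) cells, and libraries 600 and 632 together supplied 82 cells. As a share of all cells, NPC (c25) made up 0.760% of library 600 (exact 95% binomial interval 0.568 to 0.996) and 13.4% of library 628 (12.6 to 14.3). It made up 24.8% of library 623 (23.9 to 25.7), 8.82% of library 627 (8.28 to 9.38) and 1.18% of library 632 (0.794 to 1.67). The intervals, which cover counting error only, overlapped for libraries 600 and 632 and for no other pair of libraries.

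NPC (c25) was the most abundant of the 37 clusters in libraries 628 and 623 and ranked 3 in library 627. In libraries 632 and 600 it ranked 22 and 24. Its log2 odds varied over libraries with an SD of 2.36, the highest among the 37 clusters, ahead of Stromal-Microvascular (c4) with 1.83. Cap mesenchyme (c30) had an SD of 0.61 and ranked 28. With NPC (c25) cells left out of the total, Cap mesenchyme (c30) made up 2.03% of library 600, 5.46% of 628, 3.09% of 623, 4.72% of 627 and 4.68% of 632. The lowest and the highest of these values lie 2.68-fold apart, against 32.6-fold for NPC (c25) in all cells.

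**Figure D1:**
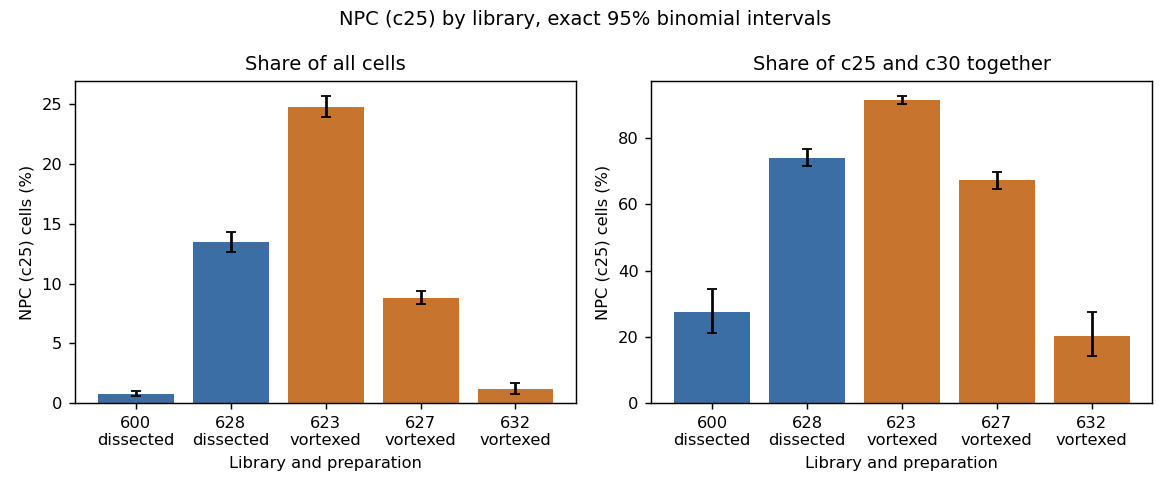
NPC (c25) cells as a percentage of all cells of a library (left) and of both progenitor names together (right). Bars are single libraries, blue for dissected and orange for vortexed, and error bars are exact 95% binomial intervals. Libraries 600 and 632 sit lowest in both panels and library 623 highest, at 24.8% and 91.4%.

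Among the cells with either progenitor name, NPC (c25) held the larger part in 3 of 5 libraries. Its share was 74.0% (exact 95% binomial interval 71.4 to 76.5) in library 628, 91.4% (90.3 to 92.5) in library 623 and 67.2% (64.6 to 69.7) in library 627. It was 27.4% (21.2 to 34.3) in library 600 and 20.3% (14.1 to 27.7) in library 632, where Cap mesenchyme (c30) held the rest. The mean was 56.1% ± 30.8 (SD, n = 5). With the early nephron clusters, 2 of which are named Differentiated NPC, added to the total, NPC (c25) made up 3.33% in library 600, 42.8% in 628, 66.1% in 623, 37.1% in 627 and 7.16% in 632. The mean was then 31.3% ± 26.2, and NPC (c25) was the larger part in library 623 alone. Of nephron-lineage cells, which here means progenitors, early nephron, podocytes and tubule, NPC (c25) made up from 1.12% in library 600 to 41.9% in library 623, with a mean of 17.5% ± 16.8.

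The numbers of NPC (c25) cells were set against those of other names in the same library. Against Cap mesenchyme (c30), the ratio was 0.377 in library 600, 2.85 in 628, 10.7 in 623, 2.05 in 627 and 0.254 in 632. The mean log2 ratio was 0.52 ± 2.20 (n = 5; exact test over all sign changes, two-sided, p = 0.625; Benjamini-Hochberg adjusted p = 0.625 over 4 ratios), and it turned to -0.20 without library 623. NPC (c25) outnumbered Cap mesenchyme (c30) in 3 of 5 libraries, and the mean ratio did not differ from 1 beyond the spread between libraries.

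Early nephron cells, the differentiating offspring of progenitors, are here the clusters Differentiated NPC (c14 and c19) and Broad proximal diff (c17). For each early nephron cell there were 0.0380 NPC (c25) cells in library 600, 1.01 in 628, 2.38 in 623, 0.828 in 627 and 0.111 in 632. The mean log2 ratio was -1.37 ± 2.47 (exact p = 0.375, adjusted p = 0.5). NPC (c25) was the more numerous name in libraries 623 and 628, in the latter with 851 cells against 839.

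Phase-named cells, of the clusters M-phase (c27), G2-M phase (c28) and G2-M phase (c29), carry a name for cell division and none for a lineage. For each of them there were 0.141 NPC (c25) cells in library 600, 0.982 in 628, 1.56 in 623, 0.322 in 627 and 0.234 in 632. The mean log2 ratio was -1.18 ± 1.44 (exact p = 0.1875, adjusted p = 0.375). Against tubule cells, the ratio ran from 0.0280 in library 600 and 0.0418 in 632 through 0.456 in 627 and 0.540 in 628 to 1.30 in 623. The mean log2 ratio was -2.27 ± 2.44 (exact p = 0.125, adjusted p = 0.375). NPC (c25) was the rarer name in 4 of 5 libraries in both comparisons, all except library 623. None of the 4 ratios reached an adjusted p under 0.05, which 5 libraries could not give, since their smallest p is 0.0625.

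The preparations were compared to ask whether hand dissection and vortexing release different shares of NPC (c25). The dissected libraries held 7.10% ± 8.97 (SD, n = 2) and the vortexed libraries 11.6% ± 12.1 (n = 3), and the values overlapped. In limma on log2 odds of the share, the log2 odds ratio of dissected against vortexed was -1.07 (SE 1.63, 95% interval -4.87 to 2.73; Benjamini-Hochberg adjusted p = 0.787). limma draws the spread of each cluster toward that of all clusters tested, and NPC (c25) varied most among them. Its SE and interval are therefore narrower than its own libraries alone would give. Of the 37 clusters tested, 0 passed an adjusted p of 0.05 (0%), 5 had an unadjusted p below 0.05 (13.5%), and NPC (c25) was in neither group. Shares of the dissected and the vortexed libraries did not overlap in 11 of 37 clusters (29.7%), and NPC (c25) was not among these.

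The difference rested on single libraries. With either dissected library left out, that preparation has 1 library, which is assumed to vary like the vortexed ones. With library 600 left out the log2 odds ratio was 1.09, and with 623 left out it was 0.020, both of the opposite sign. It was -3.23 with 628 left out, -2.37 with 632 left out and -0.86 with 627 left out. Within the progenitor names, NPC (c25) held 50.7% ± 33.0 in dissected and 59.6% ± 36.2 in vortexed libraries, a difference of -8.95 percentage points (exact two-sided permutation test over the 10 possible groupings, p = 0.8, where 0.1 is the smallest possible). This difference was 14.4 points without library 600, 6.95 without 623, -5.17 without 627, -28.6 without 632 and -32.3 without 628.

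In the embedding, NPC (c25) did not form a single group. A density clustering of the NPC (c25) positions, chosen after the map had been seen, found 2 bodies. The main body held 3339 cells (77.8%) and the side body 804 cells (18.7%), and 150 cells (3.49%) were scattered outside both. Their medians lay 7.46 embedding units apart, and no cell of the main body lay closer than 2.72 units to a cell of the side body. Each of the 5 libraries had cells in both bodies. Distances in such a map have no fixed scale, and the map was made from the same profiles as the cluster names, so these values are given as a description with no test.

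**Figure D2:**
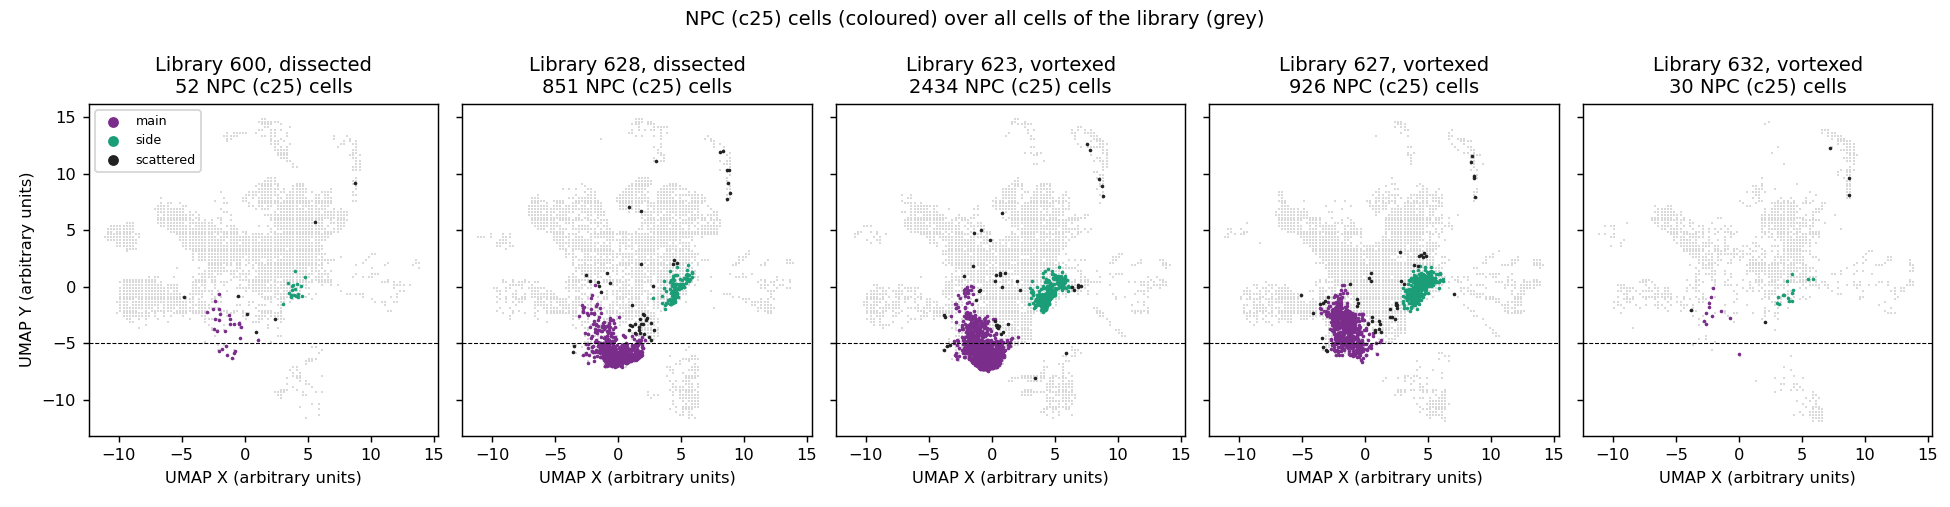
Position of NPC (c25) cells in the study's embedding (horizontal and vertical axes in arbitrary units), by library, over all cells of that library in grey. Purple marks the main body, green the side body and black scattered cells, and the dashed line at -5 bounds the lower part of the main body. The lower part is filled in libraries 628 and 623, thinly filled in 627 and nearly empty in 600 and 632.

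The side body held 18 of 52 NPC (c25) cells in library 600 (34.6%), 110 of 851 in library 628 (12.9%), 348 of 2434 in library 623 (14.3%), 314 of 926 in library 627 (33.9%) and 14 of 30 in library 632 (46.7%). The mean was 28.5% ± 14.5 (SD, n = 5). Libraries 628 and 623, where NPC (c25) was most abundant, lie low and the other libraries high, so the preparations overlap. As a share of all cells of a library, the side body ranged from 0.263% to 3.55%, a 13.5-fold range, and the main body from 0.395% to 20.8%, a 52.7-fold range.

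The main body itself was filled differently from library to library. Its lower part, the tip that lies more than 5 units below 0 on the vertical axis, held 2473 cells, of which 71.9% came from library 623 and 23.5% from library 628. By library it held 7 NPC (c25) cells of library 600 (13.5% of that library's NPC (c25) cells), 581 of library 628 (68.3%), 1779 of library 623 (73.1%), 105 of library 627 (11.3%) and 1 of library 632 (3.33%). Libraries 628 and 623, 1 from each preparation, stood apart from the other libraries here. Library 627 supplied 21.6% of all NPC (c25) cells but 4.25% of those in the lower part.

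Along the vertical axis, the median main-body cell lay at -6.05 in library 628 and -6.36 in library 623. It lay at -3.55 in library 627, -3.35 in library 600 and -2.29 in library 632, the last from only 11 cells. Outside the lower part, NPC (c25) made up 0.658% of library 600, 4.27% of 628, 6.67% of 623, 7.82% of 627 and 1.14% of 632, an 11.9-fold range. Library 627 thus held a larger share than library 623 outside the lower part, but this order turned with the boundary at 6 units, where the shares were 8.66% in 627 and 11.0% in 623. With the boundary set at 4 or 6 units, the lower part held 77.7% or 55.6% of NPC (c25) in library 623, 74.9% or 43.5% in 628 and 24% or 1.84% in 627.

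**Figure D3:**
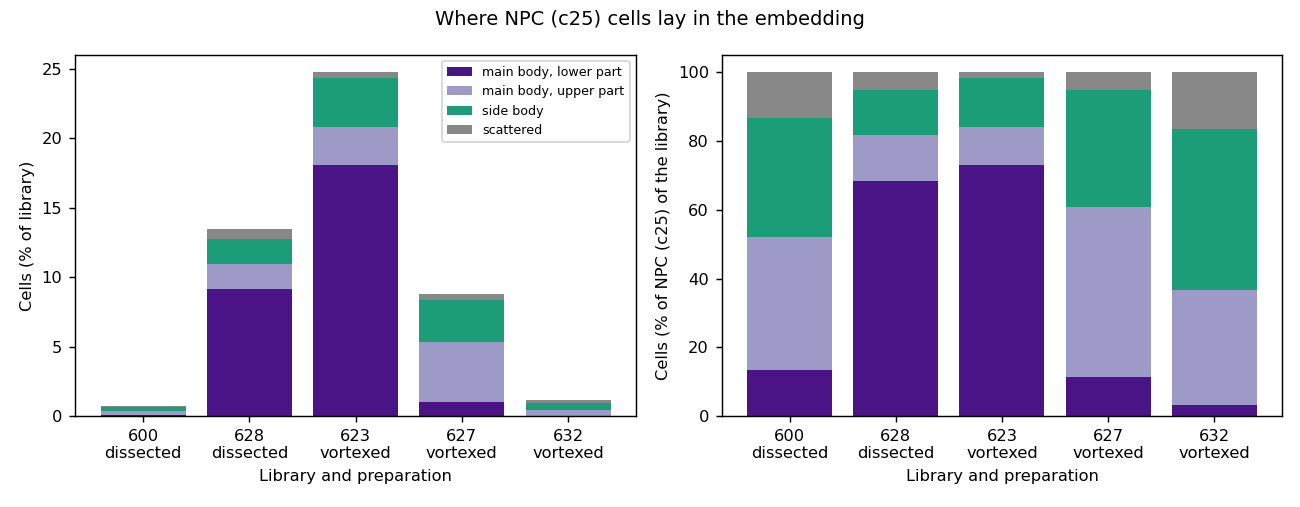
NPC (c25) cells by part of the embedding, stacked, as a percentage of all cells of a library (left) and of its NPC (c25) cells (right). The lower part of the main body makes up 68.3% and 73.1% of NPC (c25) in libraries 628 and 623 and at most 13.5% in the other libraries.

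With NPC (c25) itself and phase-named cells left out, the cells around NPC (c25) were mostly named as stroma. When all names were allowed, NPC (c25) itself made up 50.1% ± 27.7 of the 15 nearest cells (SD, n = 5). This ranged from 16.9% in library 632 to 79.8% in library 623, where NPC (c25) made up 1.18% and 24.8% of all cells. In library 600 it was 29.5%, against 0.760% of all cells. These shares therefore do not rank the libraries by how closely NPC (c25) cells lay together. Around each NPC (c25) cell, the 15 nearest cells from its own library were taken, leaving out phase-named cells and NPC (c25) itself. Fibroblast (c26), a name for matrix-producing connective tissue cells, made up 57.3% ± 21.4 of them (SD, n = 5), against 6.30% of the cells that could be chosen. By library its share was 45.1% in 600, 62.7% in 628, 85.5% in 623, 64.2% in 627 and 28.9% in 632, above the available share in 5 of 5 libraries. Interstitial Cell Lineages (c24) followed with 18.6% ± 14.8 against 3.59% available. Its share was 32.7% in library 600, 4.33% in 628, 2.61% in 623, 20.2% in 627 and 33.3% in 632, and only in 623 was it not above the available share. Every other name stayed below 5% in the mean over libraries, with Epithelial (c23) the highest at 4.29% ± 4.01.

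Other nephron names were rare among these neighbours of NPC (c25). Cap mesenchyme (c30) made up 1.15% of the nearest cells in library 600, 0.870% in 628, 0.534% in 623, 2.10% in 627 and 2.89% in 632, against a mean of 4.85% available, and lay below its available share in 5 of 5 libraries. Differentiated NPC (c19) made up 1.71% ± 2.03 and Differentiated NPC (c14) 0.412% ± 0.655, against 5.88% and 3.42% available. Broad proximal diff (c17) made up 2.43% ± 1.60 against 7.73%. Each of these early nephron names also lay below its available share in 5 of 5 libraries.

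Counted in the same way, without its own name and phase-named cells, Cap mesenchyme (c30) had other surroundings. Its nearest cells were Differentiated NPC (c19), at 22.0% ± 7.80, Collecting Duct (c13), at 19.0% ± 17.8, Broad proximal diff (c17), at 18.0% ± 5.48, and Interstitial Cell Lineages (c16), at 14.8% ± 8.47. NPC (c25) made up 3.12% ± 2.69 of them, against 12.4% available, and lay below the available share in 5 of 5 libraries. The median of Cap mesenchyme (c30) lay 9.28 units from that of the NPC (c25) main body, the 12th closest of the 36 other clusters, and 4.27 units from that of the side body, the 5th closest. By its median, Fibroblast (c26) lay closest to the main body, at 3.38 units, and was the 11th closest to the side body, at 6.06 units. A single median places Fibroblast (c26) poorly, since its cells lay in the areas of both bodies. With all names allowed, it was the most frequent other name around the side body. It made up 17.3% ± 3.57 of the nearest cells there, against 1.79% ± 0.871 for Cap mesenchyme (c30).

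Seen from the other clusters, NPC (c25) was prominent around Fibroblast (c26) and the phase-named cells. Each cluster's own cells and all phase-named cells were left out of the neighbours here. NPC (c25) made up 45.4% ± 29.7 of the nearest remaining cells of Fibroblast (c26) and 39.2% ± 11.9 for G2-M phase (c29). It made up 39.0% ± 23.3 for G2-M phase (c28) and 30.5% ± 18.9 for M-phase (c27). Each value lay above the available share, which was 12.8% for Fibroblast (c26) and 11.9% for the phase names, in 5 of 5 libraries. With phase-named cells allowed among the neighbours of NPC (c25), they made up 28.1% ± 11.8, against 15.5% available, and were above it in 4 of 5 libraries, all except 623. Fibroblast (c26) then made up 43.9% ± 22.5, G2-M phase (c29) 16.6% ± 11.0 and Interstitial Cell Lineages (c24) 10.1% ± 8.83, the last above its available share in 3 of 5 libraries.

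**Figure D4:**
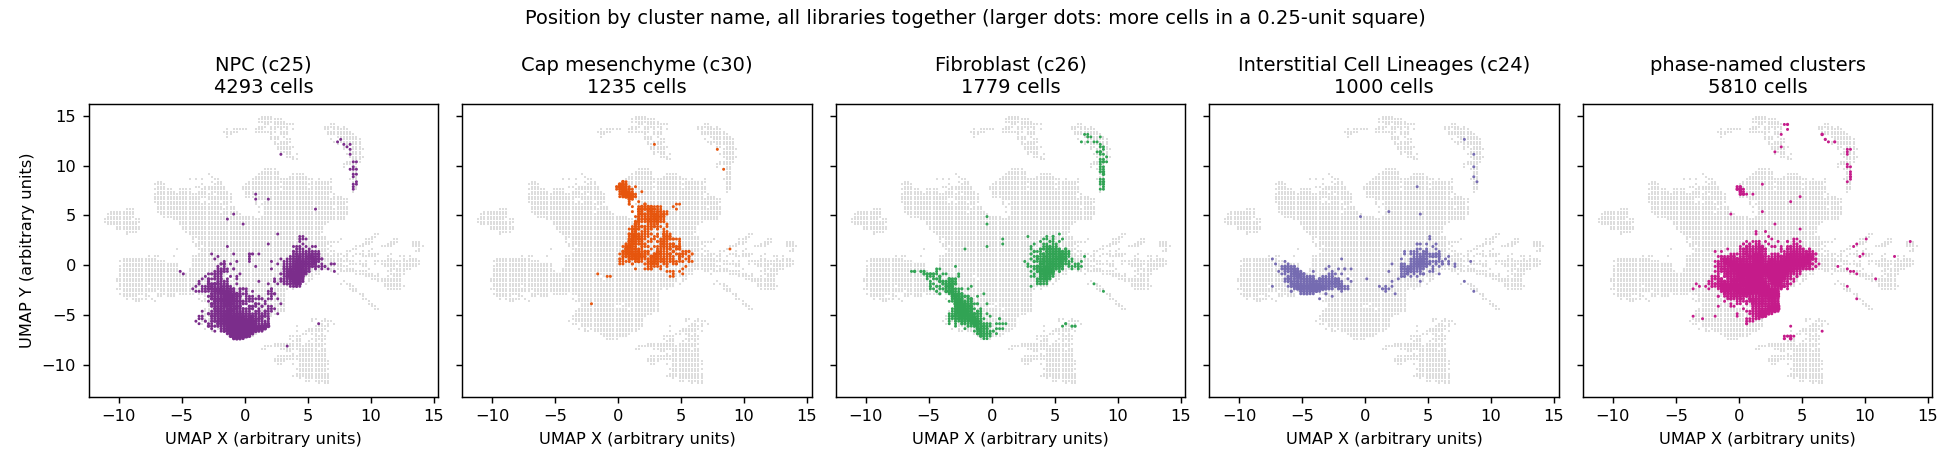
Position of 5 sets of cells in the study's embedding (axes in arbitrary units), all libraries together, over all cells in grey. NPC (c25) and Fibroblast (c26) each fill an area below the centre or to its left and an area to its right, Cap mesenchyme (c30) lies higher, and the phase-named clusters lie between the bodies of NPC (c25) and overlap them.

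The parts of NPC (c25) differed in the share of NPC (c25) among the nearest cells. These parts were drawn on the positions of NPC (c25) cells after the map had been seen, so the shares only describe them. When all names were allowed as neighbours, NPC (c25) made up 85.8% ± 10.2 of the nearest cells in the lower part of the main body (SD, n = 3 libraries with at least 10 such cells). In the same 3 libraries, 628, 623 and 627, it made up 61.9% ± 4.73 in the upper part and 33.9% ± 11.8 in the side body. Over all 5 libraries the values were 49.3% ± 17.9 and 27.2% ± 12.4. Around the lower part, 2 names reached 1% of the nearest cells, NPC (c25) and Fibroblast (c26), the latter with 13.3% ± 11.0. Around the upper part 7 names did so, and around the side body 13. These 2 counts are means over all 5 libraries, while that of the lower part rests on 3, so they are not matched.

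In the upper part, Fibroblast (c26) made up 17.2% ± 1.98 of the nearest cells, G2-M phase (c29) 13.3% ± 5.07 and Interstitial Cell Lineages (c24) 11.0% ± 10.4. Around the side body, Fibroblast (c26) made up 17.3% ± 3.57, G2-M phase (c29) 11.7% ± 6.42, Interstitial Cell Lineages (c24) 8.32% ± 5.94, G2-M phase (c28) 7.64% ± 2.90 and M-phase (c27) 7.18% ± 3.61. M-phase (c27) made up 0.450% ± 0.456 around the upper part. Cap mesenchyme (c30) made up 1.79% ± 0.871 around the side body and 0.048% ± 0.066 around the upper part.

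**Figure D5:**
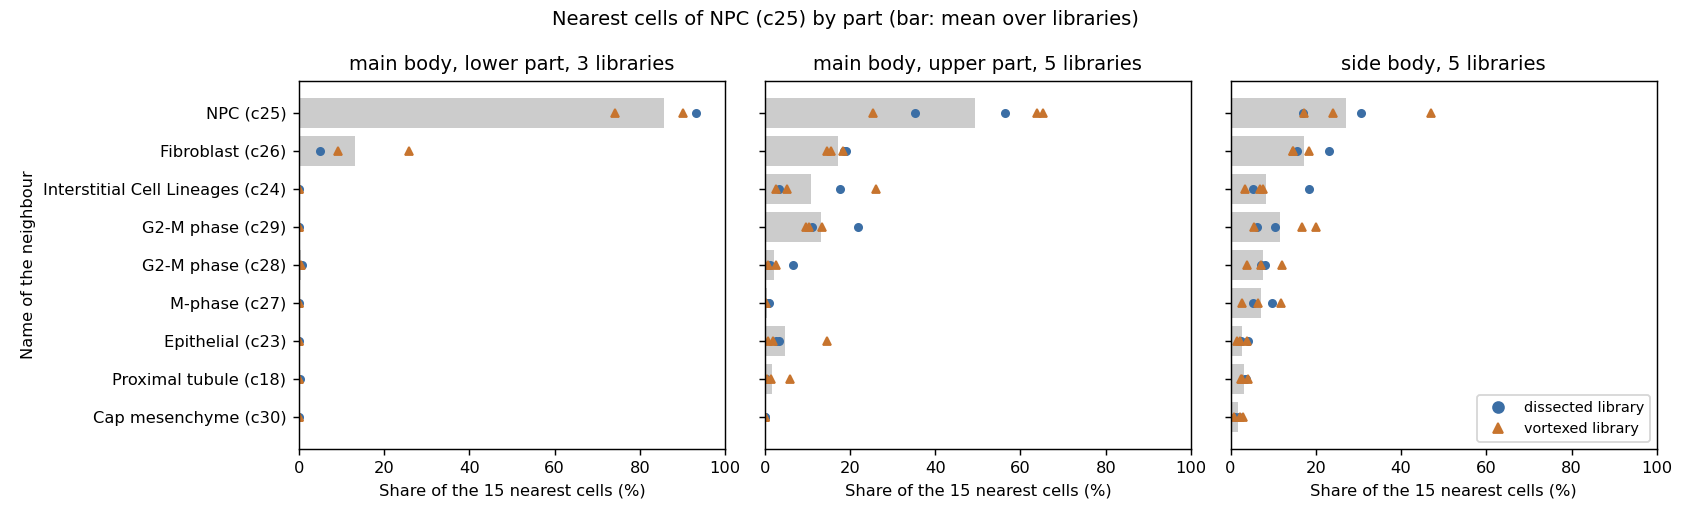
Share of the 15 nearest cells of the same library that carry each name (horizontal axis, %), for NPC (c25) cells in the lower and upper part of the main body and in the side body. Grey bars are means over libraries, blue circles dissected and orange triangles vortexed libraries. In libraries 628, 623 and 627, NPC (c25) itself falls from a mean of 85.8% in the lower part to 33.9% in the side body, while phase names and Interstitial Cell Lineages (c24) hold more than in the lower part.

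The area of the side body was shared with other names. Within its outline, drawn as the convex hull of its cells, NPC (c25) made up 6.84% of the cells of library 600, 17.1% of 628, 29.3% of 623, 16.5% of 627 and 8.86% of 632. Between 25 and 29 of the 37 names occurred there in each library. Fibroblast (c26) made up 14.4% ± 2.0 of these cells and phase names 22.8% ± 10.3. Of all Fibroblast (c26) cells, 34.7% ± 4.38 lay inside this outline, and of all Interstitial Cell Lineages (c24) cells 22.6% ± 6.75. Cap mesenchyme (c30) had 8.54% ± 2.54 of its cells there.

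Within the outline of the main body, NPC (c25) made up 30.5% of the cells of library 600, 74.5% of 628, 73.1% of 623, 39.8% of 627 and 32.4% of 632. Fibroblast (c26) had 38.9% ± 22.2 of its cells inside, G2-M phase (c29) 17.1% ± 4.66, Interstitial Cell Lineages (c24) 13.8% ± 3.54 and Cap mesenchyme (c30) 0.266% ± 0.290. Fibroblast (c26) thus had members in the areas of both NPC (c25) bodies. There were 0.559 NPC (c25) cells for each Fibroblast (c26) cell in library 600, 3.61 in 628, 3.96 in 623, 1.21 in 627 and 0.423 in 632.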

How the data were processed

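The authors deposited 1 table that lists cells. Cluster names are the authors', and the 2 coordinates are scores in arbitrary units that place each cell in the authors' embedding, per the file headers. The submitters' processing notes list Cell Ranger 6.0.1, Seurat and hg19 without a role. How cells were filtered, doublets treated and clusters drawn is not given in the sources used here. Embedding and names follow an integration of rhesus with human data, which the series' design text describes.

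Rows were kept where the library name matched a sample title (libraries 600, 628, 623, 627 and 632, with 6839, 6329, 9816, 10502 and 2553 cells). The table has 11 further library names with 58227 rows, not analysed here. A barcode found in another library used here occurred in 27 NPC (c25) cells (0.629%) and in 0.794% of all cells, and 1 NPC (c25) cell shares its whole identifier with a row of another library. Separate animals are not stated for every library, so p-values rest on the spread between libraries, which may be technical. In limma this spread is partly shared over clusters.

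Members, lists and tests were chosen with earlier results of these data known. Classes follow the names: nephron progenitors are NPC and Cap mesenchyme; tubule is Thick ascending limb, Distal convoluted tubule, Loop of Henle and every Proximal tubule cluster; stroma is every Fibroblast, Interstitial and Stromal-Microvascular cluster. Shares carry exact (Clopper-Pearson) 95% intervals. Preparations were compared with limma 3.58.1 (R 4.3.3) on log2 odds with 0.5 cells added, over clusters with at least 10 cells, and by exact permutation. On simulated data this limma step was tested first, with changes placed in rare clusters. The simulated spread between libraries was smaller than that of NPC (c25), so this test does not cover NPC (c25). Neighbours were the 15 nearest cells of the same library. Cells of the cluster itself and phase-named cells were left out unless stated. Bodies came from DBSCAN (scikit-learn 1.9.0; reach 0.5 units, at least 20 cells within reach), run on the NPC (c25) cells of all 5 libraries. Clusters were named if they held at least 5% of the neighbours of NPC (c25) or were progenitor, early nephron or phase clusters; others were named after their values were seen.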

Additional observations from a re-analysis of the deposited data

How the results depend on the processing

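Leaving out 1 library at a time gave log2 odds ratios for NPC (c25) between preparations from -3.23 to 1.09 (2 of 5 reversed; limma adjusted p from 0.155 to 0.991; the ratios of -3.23 and 1.09 rest on 1 dissected library each, so the spread comes from the vortexed libraries), and differences in its share of progenitors from -32.3 to 14.4 points (2 of 5 reversed). The mean log2 ratio to Cap mesenchyme (c30) ranged from -0.20 to 1.14 (1 of 5 reversed), that to early nephron from -2.03 to -0.54, to phase-named cells from -1.64 to -0.78 and to tubule from -2.93 to -1.55. No call could be lost, since none had been made. With 1 library left out, the stromal share of the neighbours stayed between 77.8% and 84.1%. With all 5 libraries it was 57.8% when phase-named cells were kept and filled 28.1% of the places. Interstitial Cell Lineages (c24) then fell behind G2-M phase (c29). The Cap mesenchyme (c30) share rose from 1.51% to 2.85% with 50 neighbours, and the cause was not tested. The other 34 of 36 alternatives kept direction and side of the threshold or moved by less than the spread between libraries. Thinning to 2553 cells left 4 libraries with at least 20 NPC (c25) cells. Settings for the bodies and the lower part were added after the data were seen. Libraries 600 and 632, with 52 and 30 NPC (c25) cells, limit every statement on position.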

Other observations

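Of the 150 NPC (c25) cells outside both bodies, 23 lay more than 7 units above 0 on the vertical axis of the embedding, among cells of many names. Their nearest differently named cell was Monocyte (c34) for 4 of them and Proximal tubule (c18) for 3.

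NPC (c25) cells of the same library lay together more often than their share of all NPC (c25) cells, with no test run. Among the 15 nearest NPC (c25) cells of all libraries, 50.4% came from the cell's own library for library 627, which supplied 21.6% of the NPC (c25) cells, a ratio of 2.34. The ratio was 1.92 in 628 and 1.25 in 623, where NPC (c25) was most abundant. It was 1.16 in 600 and 2.86 in 632, the latter from 30 cells. The highest possible ratio is lower for a library with a larger share, so the ratios do not rank the libraries. In 623, 71.1% of the nearest NPC (c25) cells came from the same library, which supplied 56.7%.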
